A study of Mus musculus with 78 samples.

Results

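The Obox (oocyte-specific homeobox) genes are a cluster of mouse homeobox genes on chromosome 7. The members described here are Obox1, Obox2, Obox3, Obox5 and Obox6, chosen by matching the Entrez number of each symbol to the rows of the 4-cell and 8-cell gene tables. These are 5 of the 15218 genes listed at the 4-cell stage and 5 of the 15342 listed at the 8-cell stage, and all 5 are listed at both. A further annotated member, Obox7, is listed as well and is given for comparison. The current RefSeq annotation has 53 Obox entries, of which 6 are protein coding and 47 are pseudogenes, and no pseudogene is listed in either table. The paper gives the same totals of listed genes as numbers of coding genes. The absence of the pseudogenes therefore does not show that they had no transcripts.

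Every blastomere came from an embryo with 1 copy of the Brainbow 2.1 reporter at the Rosa26 locus and 1 copy of a Cre/Esr1 fusion driven by the ubiquitous CAG promoter (alleles Gt(ROSA)26Sortm1(CAG-Brainbow2.1)Cle and Tg(CAG-cre/Esr1*)5Amc). The embryos were recovered at 46 hpi as 2-cell embryos and exposed for 2 hours to 4-Hydroxytamoxifen, which activates the fusion and can induce recombination of the reporter, and then grew in KSOM medium. Both stages share all of this. The labels describe 36 blastomeres of 9 4-cell embryos and 31 of 4 8-cell embryos. They also name a 5-cell and a 6-cell embryo, which were not used here. The gene tables hold 24 and 26 blastomeres, so several must share an embryo. No column name could be matched to one sample, embryo or lineage, so each stage was treated as 1 sample without replicates, no lineage comparison was made, and the values below are descriptions with no test between stages.

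Obox proteins are paired-like homeodomain transcription factors. The homeodomain typical of the family carries the lysine that lets Crx, Otx and Pitx proteins bind GGATTA-type sites. Transcripts of Obox1, Obox2, Obox5 and Obox7 are known from oocytes, Obox3 is known for a burst around activation of the embryonic genome, and Obox6 is known from cleavage-stage embryos. The family acts redundantly in genome activation, so the question put to the tables was which paralogues were present in which blastomeres at each stage.

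The members share much of their sequence, which matters here because only fragments with a single place in the genome were counted. The second coding exon, which carries the start of the homeobox, shows how close they are. It is printed 5′ to 3′ from GRCm38.p6 for Obox1 (chr7:15555505-15555704, plus strand), Obox2 (chr7:15397188-15397386, plus strand), Obox3 (chr7:15626796-15626995, minus strand) and Obox5 (chr7:15757879-15758078, plus strand), with capitals at each base that differs from Obox1 in a pairwise alignment.
Obox1: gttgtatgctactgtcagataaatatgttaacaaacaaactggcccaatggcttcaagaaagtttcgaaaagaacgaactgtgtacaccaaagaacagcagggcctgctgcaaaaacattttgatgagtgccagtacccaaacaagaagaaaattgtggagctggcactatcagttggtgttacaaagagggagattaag
Obox2: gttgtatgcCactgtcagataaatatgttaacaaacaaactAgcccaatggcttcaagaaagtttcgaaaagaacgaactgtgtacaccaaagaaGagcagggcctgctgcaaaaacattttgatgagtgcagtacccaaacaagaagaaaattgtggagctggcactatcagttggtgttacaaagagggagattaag
Obox3: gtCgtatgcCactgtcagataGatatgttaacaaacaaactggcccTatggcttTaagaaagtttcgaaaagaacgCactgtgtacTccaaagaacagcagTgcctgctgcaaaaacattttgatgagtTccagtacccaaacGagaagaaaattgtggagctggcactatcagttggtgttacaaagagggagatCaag
Obox5: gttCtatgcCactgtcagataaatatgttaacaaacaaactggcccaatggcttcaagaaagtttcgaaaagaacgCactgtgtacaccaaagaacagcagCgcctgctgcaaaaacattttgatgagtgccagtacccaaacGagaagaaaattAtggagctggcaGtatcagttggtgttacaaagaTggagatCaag

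The Obox2 exon differed from that of Obox1 by 3 substitutions and 1 missing base over 200 aligned positions. The Obox5 exon had 9 substitutions, the Obox3 exon had 11 and the Obox7 exon had 19. The missing base lies within the homeobox and shifts the reading frame of this exon relative to Obox1. The annotated coding sequence of Obox2 is 456 bases (151 codons), compared with 615 bases (204 codons) in Obox1. Whether the annotated Obox2 protein keeps a whole homeodomain was not examined. Obox6 (1044 coding bases, 347 codons) has no exon of this length, and its transcript aligned to the other 5 with 54.6% to 66.9% identity. Between Obox1 and Obox2 the identity was 90% over whole transcripts, with a longest shared run of 233 bases.

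To see how far this limits the values, each transcript was cut into overlapping windows of 100 bases, the read length, and each window was searched for in the genome and in the other Obox transcripts. All windows of Obox6 (100%) and nearly all of Obox5 (99.8%) and Obox7 (99.8%) lay at 1 place. For Obox3 the share was 80.9%, for Obox1 70.4% and for Obox2 66.7%. Obox1 shared 331 of its 1118 windows exactly with Obox2, and Obox2 shared 410 of its 1230 windows with Obox1. Obox3 shared 242 of its 1504 windows with the pseudogene Obox3-ps3. When copies with up to 1 mismatch were counted as well, the share fell to 46% for Obox1, 43.1% for Obox2 and 46.8% for Obox3, while it stayed at 93.7% for Obox5 and 95.6% for Obox6. The levels of Obox1, Obox2 and Obox3 are therefore lower limits relative to Obox5 and Obox6. A pair of reads can be placed by either of them, so pairs may be affected less than single windows.

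**Figure D1:**
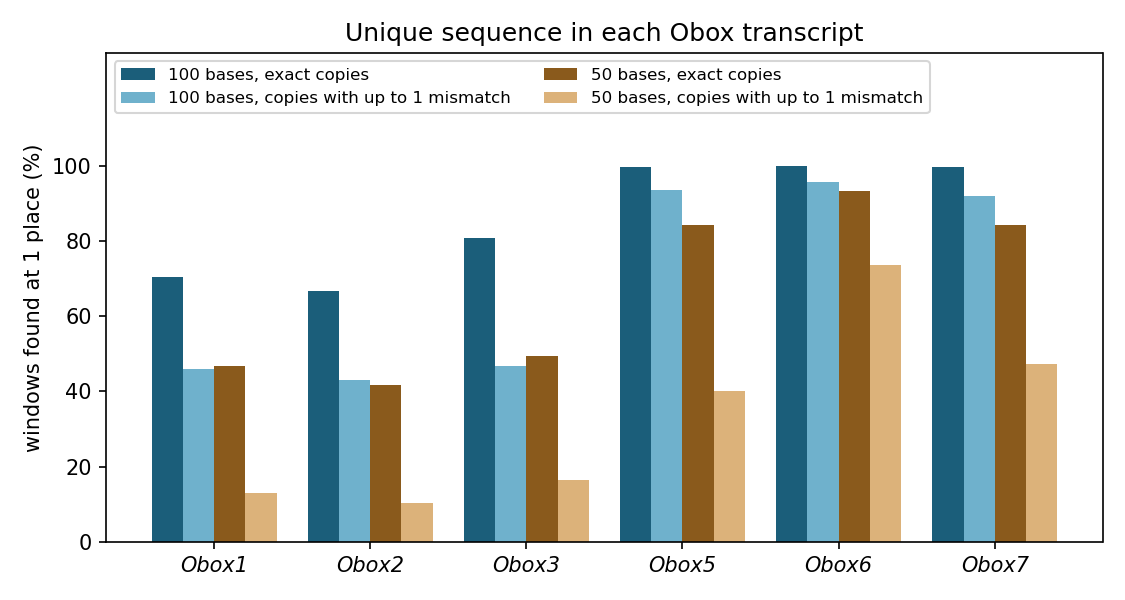
Share of windows (y axis, %) of each Obox transcript (x axis) that were found at 1 place in GRCm38, for windows of 100 and 50 bases and with or without 1 mismatch. Obox1, Obox2 and Obox3 have the least unique sequence under every setting, with 70.4%, 66.7% and 80.9% of exact 100-base windows against 99.8% for Obox5 and 100% for Obox6.

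The members lie between chr7:15388851 and chr7:15839679 in the order Obox2, Obox1, Obox3, Obox5 and Obox6, with Obox7 at chr7:14659708-14665996. Obox3 and Obox6 are on the minus strand, and Obox1, Obox2, Obox5 and Obox7 are on the plus strand. The next protein-coding genes beyond Obox6 are Crx (chr7:15865947-15879955), a photoreceptor homeobox gene, and Crxos (chr7:15882617-15904030), another homeobox gene. Crxos was abundant in every blastomere, with a median of 626.4 FPKM at the 4-cell and 658.9 FPKM at the 8-cell stage, while the median of Crx was 0 at both.

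FPKM scales the fragments of a gene by the length of its exons and by the fragments of the whole library, so it is a level per length and relative to the other genes of that blastomere. The denominators, recovered from the smallest steps between FPKM values, were 6869241 to 16864270 fragments per 4-cell blastomere (median 13358699) and 2337115 to 21736609 fragments per 8-cell blastomere (median 17227790). Between 3009 and 8276 genes were above 1 FPKM in a 4-cell blastomere and between 3548 and 8078 in an 8-cell blastomere. All 24 4-cell blastomeres contained Dppa3 transcripts (1303 to 4901 FPKM), as did all 26 8-cell blastomeres (2474 to 10167 FPKM), and this gene marks oocytes and early embryos. It was the single gene of 7 blastomere markers above 1 FPKM in every blastomere of both stages. Pou5f1 and Khdc3 were each above it in 21 4-cell blastomeres and Tfap2c in 23, and these 3 in all 26 8-cell blastomeres. Padi6 was above it in 23 and 22, Nlrp5 in 17 and 9, and Ooep in 11 and 9 blastomeres of the 4-cell and 8-cell tables. Of 10 cumulus and granulosa markers, 5 were listed among 4-cell blastomeres and 4 among 8-cell blastomeres, and the summed level of the list was 9.03 to 104.1 FPKM at the 4-cell and 3.65 to 110.7 FPKM at the 8-cell stage. Nearly all of this was Amhr2, above 1 FPKM in every blastomere, while Foxl2, Fshr, Ptx3, Inhba and Inha were not listed.

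Obox6 was by far the most abundant member. At the 4-cell stage its level was 572.1 FPKM in the lowest blastomere, 1313 at the median and 1968 in the highest. In 8-cell blastomeres the lowest, median and highest levels were 929.4, 1486 and 2298 FPKM. No blastomere of either stage lacked it, and the ranges of the stages overlapped. In comparison, 8.88% of listed genes were above 1 FPKM in every 4-cell blastomere and 11.4% in every 8-cell blastomere. Only 10 genes had a higher median at the 4-cell stage and only 6 at the 8-cell stage. Within single blastomeres Obox6 ranked between 6 and 42 among all genes at the 4-cell and between 6 and 45 at the 8-cell stage. It made up 0.184% to 0.424% of the summed FPKM of a 4-cell blastomere and 0.201% to 0.489% of that of an 8-cell blastomere. Each value rests on an estimated 7382 to 39524 fragments among 4-cell blastomeres and 7176 to 47155 among 8-cell blastomeres.

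Obox6 varied 3.44-fold between the lowest and highest 4-cell blastomere and 2.47-fold between those of the 8-cell stage. Among the 100 genes with the highest medians, its interquartile range on the log2(FPKM + 1) scale was 0.75 at the 4-cell stage, where 73 of the 100 had a smaller one, and 0.42 at the 8-cell stage, where 41 did. Its full range on that scale, 1.78 and 1.31, was larger than that of 35 and 33 of the 100 genes. Its 2 lowest 4-cell values, 572.1 and 582.5 FPKM, came from the blastomeres with the fewest genes above 1 FPKM (3009 and 3699). Over the 24 4-cell blastomeres Spearman's rho between Obox6 and that number of genes was 0.47, and over the 26 8-cell blastomeres it was 0.09. Whether library quality contributed to the low values was not tested.

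Obox5 was present in some 4-cell blastomeres and missing from others. It was above 1 FPKM in 13 of 24 (54.2%, exact Clopper-Pearson 95% interval 32.8% to 74.4%, which covers counting error only and takes blastomeres of 1 embryo as independent). The lowest value was 0, the median 2.87 and the highest 27.1 FPKM. In the 13 positive blastomeres it ranged from 1.54 to 27.1 FPKM, or 27 to 361 fragments. In the other 11 it was at 0 in 8 and rested on at most 7 fragments in 3. The highest value lay in the 4-cell blastomere with the fewest genes above 1 FPKM.

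Among 8-cell blastomeres, Obox5 was above 1 FPKM in only 2 of 26 (7.69%, interval 0.946% to 25.1%). The levels there were 10.99 FPKM (264 fragments) and 1.06 FPKM (26 fragments). One other blastomere held 1 fragment and 23 held none. The ranges of the stages overlapped, since both held blastomeres at 0.

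Obox2 was above 1 FPKM in 12 of 24 4-cell blastomeres (50%, interval 29.1% to 70.9%), with 0 as the lowest, 0.82 as the median and 19.6 FPKM as the highest value. The positive blastomeres held 1.54 to 19.6 FPKM, or 19 to 408 fragments, while of the other 12 the 10 lowest were at 0 and 2 held at most 2 fragments. In 8-cell embryos Obox2 was above 1 FPKM in 0 of 26 blastomeres, for which the exact interval reaches 13.2% and the simpler limit of 3 counts of the total 11.5%. Its highest 8-cell value was 0.192 FPKM, from 4 fragments, and 24 of the 26 values were 0. The medians were thus 0.82 and 0 FPKM, and the ranges overlapped through the 4-cell blastomeres without the transcript.

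Obox1 was the rarest member with clear signal. Its 4-cell values were 10.97, 10.94, 8.04 and 6.01 FPKM in 4 blastomeres (98 to 181 fragments), 0.211 FPKM in 1 (2 fragments) and 0 in 19, which gave a median of 0. The share above 1 FPKM was 16.7% (interval 4.74% to 37.4%). The transcript was above 1 FPKM in 0 of 26 8-cell blastomeres, its highest value was 0.0655 FPKM, and 2 fragments were found in all blastomeres together.

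Obox3 was not above 1 FPKM in any blastomere. At the 4-cell stage it was 0 in 11 blastomeres and between 0 and 0.563 FPKM in 13, with a median of 0.042 FPKM and 37 fragments in all 24 together. The highest value, from 12 fragments, lay in the blastomere with the second-lowest number of genes above 1 FPKM (3699). At the 8-cell stage 24 of 26 values were 0 and the highest was 0.135 FPKM, from 4 fragments. The exact intervals for 0 of 24 and 0 of 26 blastomeres above 1 FPKM reach 14.2% and 13.2%, and the limits of 3 counts of the total are 12.5% and 11.5%.

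Obox7 resembled Obox1 in its rarity but not in its level. It was above 1 FPKM in 3 of 24 4-cell blastomeres, at 46.9, 27.3 and 11.1 FPKM (922, 529 and 190 fragments), and in 0 of 26 at the 8-cell stage, where its highest value was 0.0456 FPKM. The 46.9 FPKM was the highest level of any Obox gene other than Obox6.

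**Figure D2:**
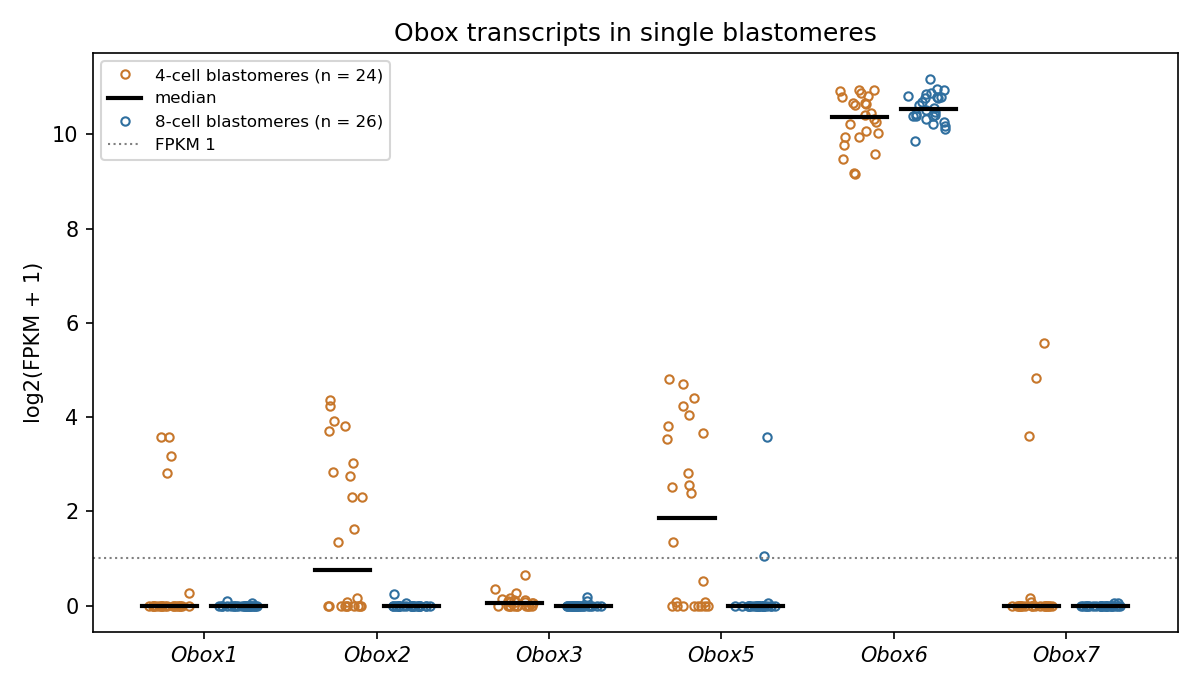
Level of each Obox gene (x axis) in every blastomere on the log2(FPKM + 1) scale (y axis), with 24 4-cell and 26 8-cell blastomeres as points, the median as a bar and 1 FPKM as a dotted line. Obox6 lies between 572.1 and 2298 FPKM in every blastomere, Obox1, Obox2, Obox5 and Obox7 are split at the 4-cell stage between blastomeres near 0 and blastomeres of up to 46.9 FPKM, and Obox3 stays at or below 0.563 FPKM.

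Ordered by the 4-cell median, Obox6 (1313 FPKM) came before Obox5 (2.87), Obox2 (0.82), Obox3 (0.042) and Obox1 (0). By the mean over blastomeres Obox1 came before Obox3, with 6.79 FPKM for Obox5, 4.47 for Obox2, 1.51 for Obox1 and 0.0732 for Obox3. The gap below Obox6 was larger than the spread, since its lowest value (572.1 FPKM) was above every value of the others. The remaining neighbours in the order had overlapping ranges, each with blastomeres at 0. At the 8-cell stage the medians of Obox1, Obox2, Obox3 and Obox5 were all 0. The summed level of Obox1, Obox2 and Obox5 was 0 to 31.9 FPKM at the 4-cell stage (median 10.7) and 0 to 10.99 FPKM at the 8-cell stage (median 0). Where the sum was above 0, Obox6 was at least 21.1 times as high in every 4-cell blastomere and at least 167.4 times as high in every 8-cell blastomere.

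Values between absence and clear presence were rare for Obox1, Obox2 and Obox5. Between 0 and 1 FPKM there was 1 4-cell blastomere for Obox1, 2 for Obox2 and 3 for Obox5. An FPKM of 1 corresponds to 9.01 to 22.1 fragments for Obox5 in the 4-cell blastomeres, so values well below 1 could have been seen. The same split was usual among all genes of equal rarity. Among the 316 genes above 1 FPKM in 13 of 24 4-cell blastomeres, the median number with a value between 0 and 1 was 3, and among the 310 genes above 1 FPKM in 12 it was also 3. The positive blastomeres themselves were somewhat higher than usual for Obox5 (median 11.7 FPKM against 6.73 over the 316 genes) and for Obox1 (9.49 against 3.97 over 597 genes). For Obox2 they were close to the usual level (6.68 against 6.17). For Obox7 the median of 27.3 FPKM stood against 3.62 over 720 genes. Amplification of RNA from a single cell can lose transcripts, and how far it shaped these zeros was not tested.

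The paralogues did not mark one set of 4-cell blastomeres. Of 24 blastomeres, 7 had none of Obox1, Obox2 and Obox5 above 1 FPKM, 7 had 1 of them, 8 had 2 and 2 had all 3. Obox2 and Obox5 were both present in 8, Obox2 alone of the pair in 4, Obox5 alone in 5 and neither in 7. Spearman's rho of the pair over the 24 blastomeres was 0.15, a weak relation.

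Obox1 and Obox2, the pair with the most shared sequence, overlapped in 3 of the 4 Obox1-positive blastomeres. In these the levels of Obox1 and Obox2 were 10.97 and 13.1 FPKM, 8.04 and 3.91 FPKM, and 6.01 and 7.20 FPKM. The fourth held 10.94 FPKM of Obox1 (181 fragments) but 0.111 FPKM of Obox2 (2 fragments). In the other direction, 9 of the 12 Obox2-positive blastomeres had no Obox1 above 1 FPKM, and their Obox2 reached 19.6 FPKM. Fragments were thus assigned to 1 of the genes in the near absence of the other in both directions. The rho of the pair was 0.32 over the 24 blastomeres.

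Obox7 was above 1 FPKM in 0 blastomeres together with Obox1 or Obox2 and in 1 together with Obox5. Counts this small say little. Obox6 levels had a rho of 0.20 with Obox2, 0.01 with Obox5, -0.06 with Obox1, 0.18 with Obox3 and -0.44 with Obox7, which had only 3 values above 1 FPKM, over the 24 4-cell blastomeres. These correlations are descriptions over blastomeres that share embryos, and those of Obox1, Obox2, Obox3 and Obox5 rest on many tied zeros. At the 8-cell stage each of these 4 genes was above 0 in only 2 or 3 of 26 blastomeres, which leaves no relation to describe.

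**Figure D3:**
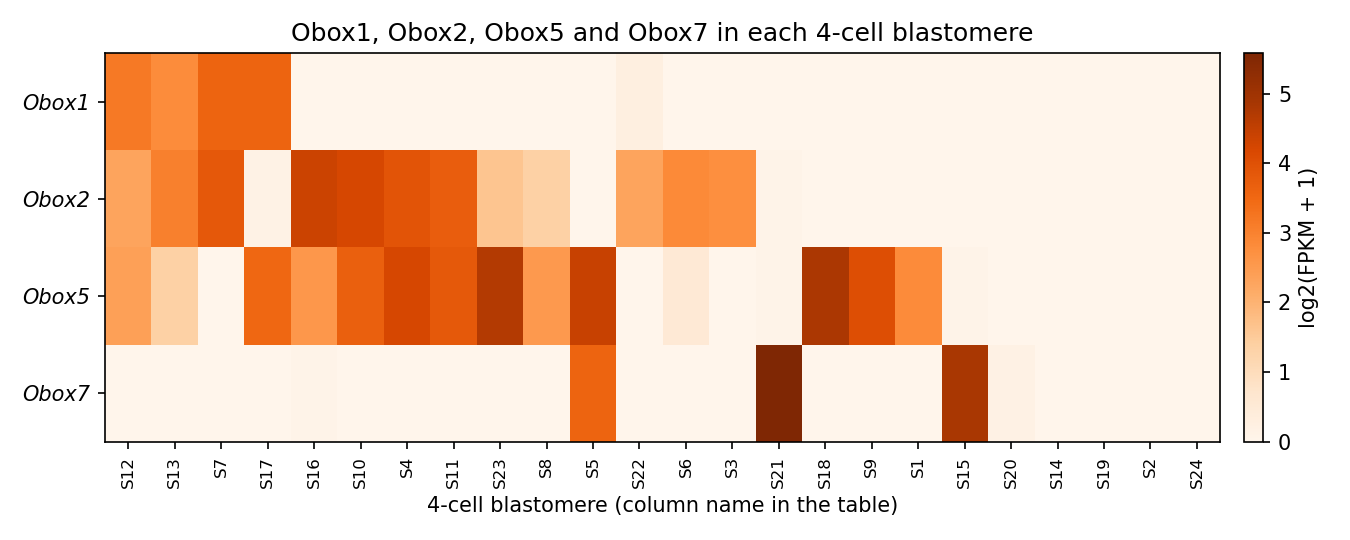
Level of Obox1, Obox2, Obox5 and Obox7 (rows) in each of the 24 4-cell blastomeres (columns, named as in the table) as colour on the log2(FPKM + 1) scale, with blastomeres sorted by how many of the genes were above 1 FPKM. No blastomere held all 4 genes and 5 held none above 1 FPKM.

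Between the stages, Obox5 and Obox2 had the largest differences. On log2(FPKM + 1) of the medians, the 8-cell minus 4-cell difference was -1.95 for Obox5, -0.87 for Obox2, -0.06 for Obox3, 0 for Obox1 and 0.18 for Obox6. Over the 13604 genes listed at both stages, 9.78% had a median lower by at least 1 at the 8-cell stage and 5.23% a median higher by at least 1. Obox5 was the 1 member of 5 past the first of these and no member was past the second. With the mean of log2(FPKM + 1) over blastomeres in place of the median, Obox2 was past it as well, at -1.51, and Obox5 was at -1.72. The value of Obox2 lies on an edge, since its 4-cell median falls between present and absent blastomeres. It became -1.34 when any 1 of the 12 4-cell blastomeres without the transcript was left out and -0.15 when any 1 of the 12 with it was left out. The 4-cell blastomere with the fewest genes above 1 FPKM (3009) had the highest Obox5 and no Obox2, and without it the 4-cell medians were 1.54 FPKM for both and the stage differences -1.34 for both. The median difference of all genes was 0. Relative to all genes, 3.74% had a lower difference than Obox5 and 11.4% a lower one than Obox2. Many of these genes have a median near 0 and cannot be lower. Among the 7248 genes above 1 FPKM in at least 50% of the blastomeres of a stage, 18.3% were lower by at least 1, the median difference was -0.11 and the 5th percentile was -2.25. Obox5, at -1.95, lay above that percentile. The median hides genes found in under 50% of blastomeres, such as Obox1, whose 4 positive blastomeres did not move it.

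The share of blastomeres above 1 FPKM was also compared. From the 4-cell to the 8-cell stage it fell by 50 percentage points for Obox2. For Obox5 it fell by 46.5 points. These 2 of 5 members lost at least 25 points, compared with 6.81% of the 13604 genes. Over these 13604 genes, 0.456% had a loss at least as large as that of Obox2 and 0.764% one as large as that of Obox5. Many of them were found in too few 4-cell blastomeres to lose this much, and genes listed only at the 4-cell stage are left out. Among the 6878 genes with a 4-cell share at least that of Obox2, 9.90% lost at least 25 points and 0.901% lost as much as Obox2. Among the 6568 genes with a 4-cell share at least that of Obox5, 1.57% lost as much as Obox5. Obox1 lost 16.7 points, and 14.1% of all genes, or 19.2% of the 9995 genes with a 4-cell share at least as high, had a loss at least as large. Obox7 lost 12.5 points, and Obox3 and Obox6 stayed at 0% and 100%. The median denominator was 13358699 fragments for 4-cell and 17227790 for 8-cell blastomeres, the shallowest library was an 8-cell one, and the median number of genes above 1 FPKM was 7155 and 6773 in the same order. The part of depth or library quality in the difference was not tested. These are values of 1 sample per stage, and a difference between collections of embryos cannot be told apart from a difference between stages.

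**Figure D4:**
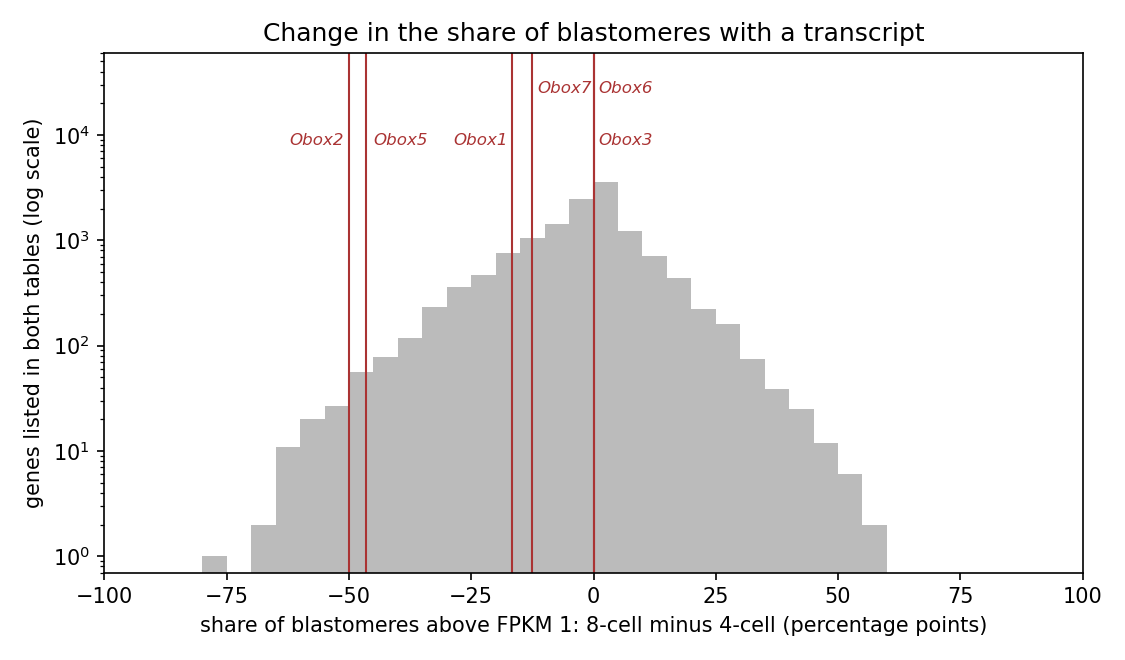
Histogram of the 8-cell minus 4-cell difference in the share of blastomeres above 1 FPKM (x axis, percentage points) for the 13604 genes listed at both stages, with the number of genes on a log scale (y axis) and a line for each Obox gene. Obox2 (-50 points) and Obox5 (-46.5 points) lie far out on the left, whereas Obox3 and Obox6 lie at 0.

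The regions before the annotated starts gave a further point of likeness. The 100 bases upstream of the start are printed 5′ to 3′ from the RefSeq promoter table (GRCm38.p6) for Obox1 (chr7:15547157-15547256, plus strand), Obox3 (chr7:15639778-15639877, minus strand), Obox5 (chr7:15750270-15750369, plus strand) and Obox2 (chr7:15388751-15388850, plus strand), with TATATAA in capitals.
Obox1: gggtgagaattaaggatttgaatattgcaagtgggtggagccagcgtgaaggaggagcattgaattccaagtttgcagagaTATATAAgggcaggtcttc
Obox3: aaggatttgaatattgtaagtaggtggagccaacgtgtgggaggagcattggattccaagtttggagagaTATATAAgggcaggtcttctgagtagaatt
Obox5: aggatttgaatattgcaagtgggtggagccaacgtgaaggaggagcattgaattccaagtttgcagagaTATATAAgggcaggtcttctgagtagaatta
Obox2: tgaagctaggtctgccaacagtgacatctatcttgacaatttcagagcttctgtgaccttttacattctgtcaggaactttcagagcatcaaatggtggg

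TATATAA, searched on both strands, was in 4 of the 5 Obox promoters of the table, those of Obox1, Obox3, Obox5 and Obox7. Of all 32851 promoters of 300 bases in the table, 3.24% held it. It began 19 bases before the annotated start in Obox1, 30 in Obox3, 31 in Obox5 and 5 in Obox7, within a stretch that reads alike in these genes. Obox1, Obox3, Obox5 and Obox7, which share these letters, were above 1 FPKM in 4, 0, 13 and 3 of 24 4-cell blastomeres. Obox2, whose promoter window lacks them, was above 1 FPKM in 12. The last bases of the Obox2 stretch read nearly like the first of the 100 bases before the Obox7 start. The annotated starts thus lie at different places in the shared sequence, and bases beyond the Obox2 window were not searched for the letters. Whether the letters bear on the numbers of blastomeres was not tested. GGATTA, the type of site that this class of homeodomain binds, was searched on both strands and found in 1 of the 5 promoters, that of Obox3, compared with 7.06% of all promoters. A match describes letters in this window only. Obox6 was not among the matched promoters.

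Other genes with related roles were compared from fixed lists. Of 10 genes whose homeodomain has the same lysine (Crx, Otx, Pitx, Gsc, Dmbx1 and Crxos among them), 6 were listed at both stages. Of these, 0 were lower and 0 higher by at least 1 on log2(FPKM + 1), and the median difference was 0.04. Over all genes the shares were 9.78% lower and 5.23% higher. Crxos, at 395.0 to 969.8 FPKM in 4-cell and 430.3 to 1277 FPKM in 8-cell blastomeres, was the one abundant gene of this list, as Obox6 was of its own family. The largest differences in it were those of the developmental regulators Dmbx1 (0.96) and Gsc (0.46), and that of Crxos was 0.07.

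Of 12 maternal transcripts, 3 were lower by at least 1 and 0 were higher, with a median difference of 0, beside 9.78% lower and 5.23% higher over all genes and 18.3% lower among the genes above 1 FPKM in at least 50% of the blastomeres of a stage. The 3 were Btg4 (-3.49), which directs removal of maternal messages, Nlrp5 (-2.43), part of the subcortical maternal complex, and Gdf9 (-2.43), an oocyte growth factor. The share of blastomeres above 1 FPKM was lower by at least 25 points for 3 of the 12 and higher by as much for 0, compared with 6.81% lower and 2.34% higher over all genes. By this measure the 3 were Btg4, Nlrp5 and Bmp15. Bmp15 was above 1 FPKM in 10 4-cell and 2 8-cell blastomeres, whereas Gdf9, in 13 and 9, did not lose as much.

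Of 8 oocyte transcription factors, 6 were listed at both stages. A difference of 1 in either direction was passed by 0 of these, beside 9.78% lower and 5.23% higher over all genes. The largest was that of Taf4b (-0.90), a subunit of the transcription factor TFIID in germ cells, and it was the single gene of the list above 1 FPKM in at least 50% of blastomeres. The share of blastomeres above 1 FPKM was lower by at least 25 points for 1 of the 6 and higher by as much for 0. Over all genes, 6.81% were lower and 2.34% higher by as much. Of 16 genes of the burst known from the 2-cell embryo, 12 were listed at both stages. In either direction 0 of these passed a difference of 1, beside 9.78% lower and 5.23% higher over all genes. In this list Tdpoz4 (-0.63) and Tcstv3 (-0.12) differed most. Most genes of this list had a median of 0 at both stages.

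Of 15 genome activation factors, 1 was lower by at least 1 and 1 was higher, and the median difference was -0.18, beside 9.78% lower and 5.23% higher over all genes. By the share of blastomeres above 1 FPKM, 1 was lower by at least 25 points and 0 were higher, beside 6.81% and 2.34% of all genes. Klf17, a Krüppel-like factor, had a median of 347.5 FPKM at the 4-cell and 88.0 FPKM at the 8-cell stage (-1.97). Rarg, a retinoic acid receptor, had medians of 8.34 and 20.2 FPKM (1.19), and Nfyb, a subunit of a CCAAT-binding factor, was at -0.96. Of 11 later zygotic genes, 9 were listed at both stages, 2 were lower and 4 higher by at least 1 (9.78% and 5.23% over all genes), and the median difference was 0.57. By the share of blastomeres, 1 was lower and 2 were higher by at least 25 points, beside 6.81% and 2.34% of all genes. The keratin genes Krt8 (5.47) and Krt18 (4.95) and the pluripotency factor Pou5f1 (1.39) had the largest differences. The 2 lower ones were Nanog, another pluripotency factor (-1.32), and Id2, an inhibitor of helix-loop-helix factors (-1.29).

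The genes whose levels were most alike those of each member were ranked by Spearman's rho over the blastomeres of a stage, among genes above 1 FPKM in at least 50% of them. For Obox6 at the 4-cell stage, among 6875 genes, these were Gabarapl2 (rho 0.91), an autophagy gene, Eef1akmt1 (0.89), a methyltransferase gene, and Ran (0.89), a GTPase of nuclear transport. The central 95% of all genes had a rho of -0.60 to 0.71 with Obox6, so high values were frequent at that stage. The named genes had a rho of 0.35, 0.62 and 0.34 with the number of genes above 1 FPKM. At the 8-cell stage 6324 genes were compared. The most alike were Rpl19 (0.80), a ribosomal protein gene, Arpc4 (0.78), an actin nucleation gene, and Rpl5 (0.75), also ribosomal. Their rho with the number of genes above 1 FPKM was -0.02, -0.09 and 0.03. The central 95% spanned -0.51 to 0.54.

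For Obox2 the most alike genes at the 4-cell stage were Nhlrc2 (0.77), 2310061I04Rik (0.74) and Mydgf (0.72). Their rho with the number of genes above 1 FPKM was 0.35, 0.43 and 0.69 in the same order. For Obox5 the most alike genes were Gm2042 (0.74), Arhgap10 (0.68) and Ecpas (0.66). Their rho with that number was -0.11, 0.36 and 0.26. The central 95% spanned -0.33 to 0.46 for Obox2 and -0.39 to 0.41 for Obox5. These are the highest of 6875 values over 24 blastomeres.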

How the data were processed

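Single-blastomere Smart-seq2 libraries were sequenced as read pairs of 100 bases. The authors aligned them to mm10 with STAR 2.5.1b, kept uniquely aligned pairs, counted them on RefSeq genes with HTSeq-count and deposited a table of FPKM values for each stage. The gene lengths and totals behind the FPKM were not given in the sources used here. The deposited transposon tables were not used. Of the 8-cell columns, 5 are named NA and were kept.

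Members were found by Entrez number. Members, lists and thresholds were chosen with earlier results of these data known. A transcript was called present above 1 FPKM. The stage difference is the log2(FPKM + 1) of the 8-cell median minus that of the 4-cell median, set beside all 13604 genes listed at both stages. In stage comparisons "all genes" means these 13604. Genes listed at 1 stage only, which may include genes lost by the 8-cell stage, are not among them. Alternatives were means for medians, another pseudocount, other thresholds, size-factor scaling and leaving out blastomeres. The lists are given with up to 3 genes of the largest difference each, and for each member above 1 FPKM in at least 50% of a stage's blastomeres the 3 genes most alike outside the family are named. FPKM denominators were recovered from genes with 1 curated transcript (8467 and 8590), where the lowest values are multiples of 1 fragment. In every library at least 90.35% of values under 10 fragments came out within 0.1 of a whole number. The step was tested on simulated data. Fragments are not independent molecules, since reads carry no molecular identifiers. Windows were searched with blastn 2.17.0 (ungapped) in GRCm38 without patches and alternate loci. Symbols were found for 15200 of 15218 and 15320 of 15342 identifiers. Analyses used Python 3.11.15 with pandas 2.3.3, scipy 1.17.1 and Biopython 1.88.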

Additional observations from a re-analysis of the deposited data

How the results depend on the processing

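No paired analysis was possible because no table column could be matched to a sample, embryo or lineage by its name. For the same reason the planned lineage comparison, with and without the block, was not run. Whether columns could be matched by their order or depth was not tested. Of 132 recomputed values, 114 stayed within the spread between blastomeres or within 1.5 times a count. With a pseudocount of 0.1, the stage difference was -4.89 for Obox5, -3.21 for Obox2 and -0.50 for Obox3. With the mean of log2(FPKM + 1) it was -1.51 for Obox2, which passes a difference of 1. Without each blastomere in turn it ranged from -2.38 to -1.34 for Obox5, from -1.34 to -0.15 for Obox2, from -0.0613 to -0.0568 for Obox3 and from 0.14 to 0.22 for Obox6, and it stayed at 0 for Obox1. Above 0.1 FPKM, Obox3 was found in 5 4-cell blastomeres and 1 8-cell blastomere and Obox2 in 1 8-cell blastomere. Above 5 FPKM, Obox5 was found in 1 8-cell blastomere. Pearson's r of Obox3 and Obox6 at the 4-cell stage was -0.17, against a rho of 0.18. Windows of 50 bases lowered the unique share to 46.9% for Obox1, 41.8% for Obox2, 49.4% for Obox3, 84.2% for Obox5 and 93.2% for Obox6. With 1 mismatch allowed it was 46%, 43.1%, 46.8%, 93.7% and 95.6% in the same order. Leaving out the columns named NA or the 1 gene-poor 4-cell blastomere moved no median or count beyond these limits, which are wide. Size-factor scaling and dividing FPKM by the unique share moved no median beyond them and were not run on counts. A median of 0 stays at 0 under both, and that of Obox6, with a unique share of 100%, cannot change under the division. Values fixed in this way are among the 114 and say nothing about robustness. Leaving out the 1 shallow 8-cell blastomere was run on counts only and moved none beyond them. Without the gene-poor blastomere the 4-cell median of Obox5 went from 2.87 to 1.54 FPKM and that of Obox2 from 0.82 to 1.54 FPKM. For counts, leaving out the gene-poor or the shallow blastomere was added after the data were seen, as was the division by the unique share. Leaving out each blastomere in turn put rho between 0.24 and 0.38 for Obox1 with Obox2, and 0.089 and 0.25 for Obox2 with Obox5. For Obox6 it ranged from 0.14 to 0.33 with Obox2 and from -0.07 to 0.15 with Obox5. With Obox1 it ranged from -0.22 to 0.02 and with Obox3 from 0.10 to 0.33.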
